A study of Homo sapiens with 8 samples.

Results

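In MM1.S cells kept with MS177 for 24 h, 63 genes stood at 2.02 to 32.4% of their DMSO level, while their means with the related compounds MS177N1 and C24 lay between 70.8 and 132.7% of it. These genes were chosen from the measured values themselves. A gene was taken if its normalized reads averaged at least 100 over the 2 DMSO libraries and were at most 0.33 of that average in each MS177 library. The choice took 63 of 16295 listed genes, or 0.387%, and 63 of the 10118 genes that reached 100 normalized reads in DMSO. All 63 also passed the filter on low reads that left 14164 genes for testing.

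MM1.S is a human line of plasma cells, the antibody-secreting end stage of B cells, taken from multiple myeloma. The 4 groups were 0.5 uM MS177, 0.5 uM MS177N1, 0.5 uM C24 and the solvent DMSO, all collected after 24 h, with 2 RNA-seq libraries in each. From background knowledge, MS177 carries the histone methyltransferase EZH2 to the ubiquitin ligase receptor CRBN for degradation, MS177N1 is a close analog used as a control that leaves EZH2 in place, and C24 is the EZH2 inhibitor on which MS177 was built. All groups are the same line at a single dose and time, and the labels do not say whether the replicates were separate cultures, so a p-value here speaks only of the spread among these libraries, which may be technical.

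As background, EZH2 is the enzyme of a Polycomb complex that marks chromatin at silenced genes. Plasma cells lodge in bone marrow through integrins and cell-surface proteoglycans, and they have shut down most of the receptor signalling of the B cells they came from. Many signals from outside such cells pass through G proteins and cyclic AMP, which adenylyl cyclases make and phosphodiesterases destroy.

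Reads in listed genes ran between 20000665 and 26619099 per library. All 9 plasma-cell markers were listed, and their summed level was 121980 to 124143 normalized reads with MS177, 195941 to 198093 with MS177N1, 198262 to 199882 with C24 and 194902 to 194941 with DMSO. IGJ, the joining chain of antibodies, made up most of that gap, with 34601 and 34216 normalized reads with MS177 and 80811 and 79845 with DMSO, while XBP1, a transcription factor of secretory cells, had 34814 and 33576 with MS177 and 31974 and 31433 with DMSO. Of 8 monocyte and granulocyte markers, 5 were listed and none of these was at 0 in all libraries, and their sum was 1552 to 1671 with MS177, 296 to 325 with MS177N1, 337 to 341 with C24 and 293 to 368 with DMSO. Nearly all of that sum was CD68, a lysosomal protein, with 1585 and 1471 normalized reads with MS177 and 282 and 356 with DMSO. AIF1 had 51.4 and 42.1 with MS177 and 3.30 and 0 with DMSO. CD163 had 24.6 and 24.3 with MS177 and 0 and 0.961 with DMSO. CD14, the monocyte surface receptor, had 9.64 and 10.3 with MS177 and 7.70 and 9.61 with DMSO, and CSF1R had at most 3.74 in any library. The listed stromal and epithelial markers summed to 61.7 to 72.9 with MS177 and 23.1 to 43.3 with DMSO, and HBB, the listed erythroid marker, had at most 25.5 in any library. The part of these marker differences in the results was not tested. EZH2 mRNA had 2819 and 2881 normalized reads with MS177, 2720 and 2723 with MS177N1, 2713 and 2665 with C24 and 2676 and 2687 with DMSO, and EZH2 protein was not measured here. In bulk RNA, fewer cells that express a gene and less RNA per cell cannot be told apart.

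The name under which the genes were proposed, well expressed genes lost with MS177, fits their values only in part. Their DMSO means ran from 102 to 5530 normalized reads with a median of 361, below the median of 465 over the tested genes. In DMSO 25 of them lay above that median and 38 at or below it. Normalized reads grow with transcript length, so they rank no gene by its number of RNA molecules. None of the 63 was at 0 in any library, and 59 had at least 10 reads in both MS177 libraries. They are therefore called here the 63 MS177-low genes.

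The 63 genes together held 9567 and 9311 normalized reads in the MS177 libraries, 41035 and 40840 with MS177N1, 41278 and 41460 with C24, and 42031 and 41340 with DMSO. That was 0.0446 and 0.0436% of all normalized reads with MS177 and between 0.181 and 0.185% in the other 6 libraries. The median gene stood at 23.1% of its DMSO mean with MS177, or 4.32-fold lower. At least 10-fold lower levels were seen for 7 genes, 5 to 10-fold lower levels for 15 and under 5-fold lower levels for 41. The MS177 mean was 2.66 to 47.6-fold lower than the MS177N1 mean (median 4.20) and 3.13 to 47.0-fold lower than the C24 mean (median 4.33). Because the MS177 libraries chose the genes, these folds are descriptions without a test.

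Both MS177 libraries lay below all 6 other libraries for all 63 genes, and the same order was found for 31.7% of all tested genes. The choice set the MS177 libraries far below the DMSO mean, so nothing is read from that count. Over all tested genes, 29.0% were called lower with MS177 than with DMSO by limma. The lowest of the other 6 libraries was 2.32 to 33.7 times the higher MS177 library. The MS177 replicates were within 1.5-fold of each other for 58 genes, with a median ratio of 1.13. The exceptions were ILDR2, CCDC64, GAS1, RHBDL3 and C11orf95, of which C11orf95 had the widest ratio, 4.77.

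**Figure D1:**
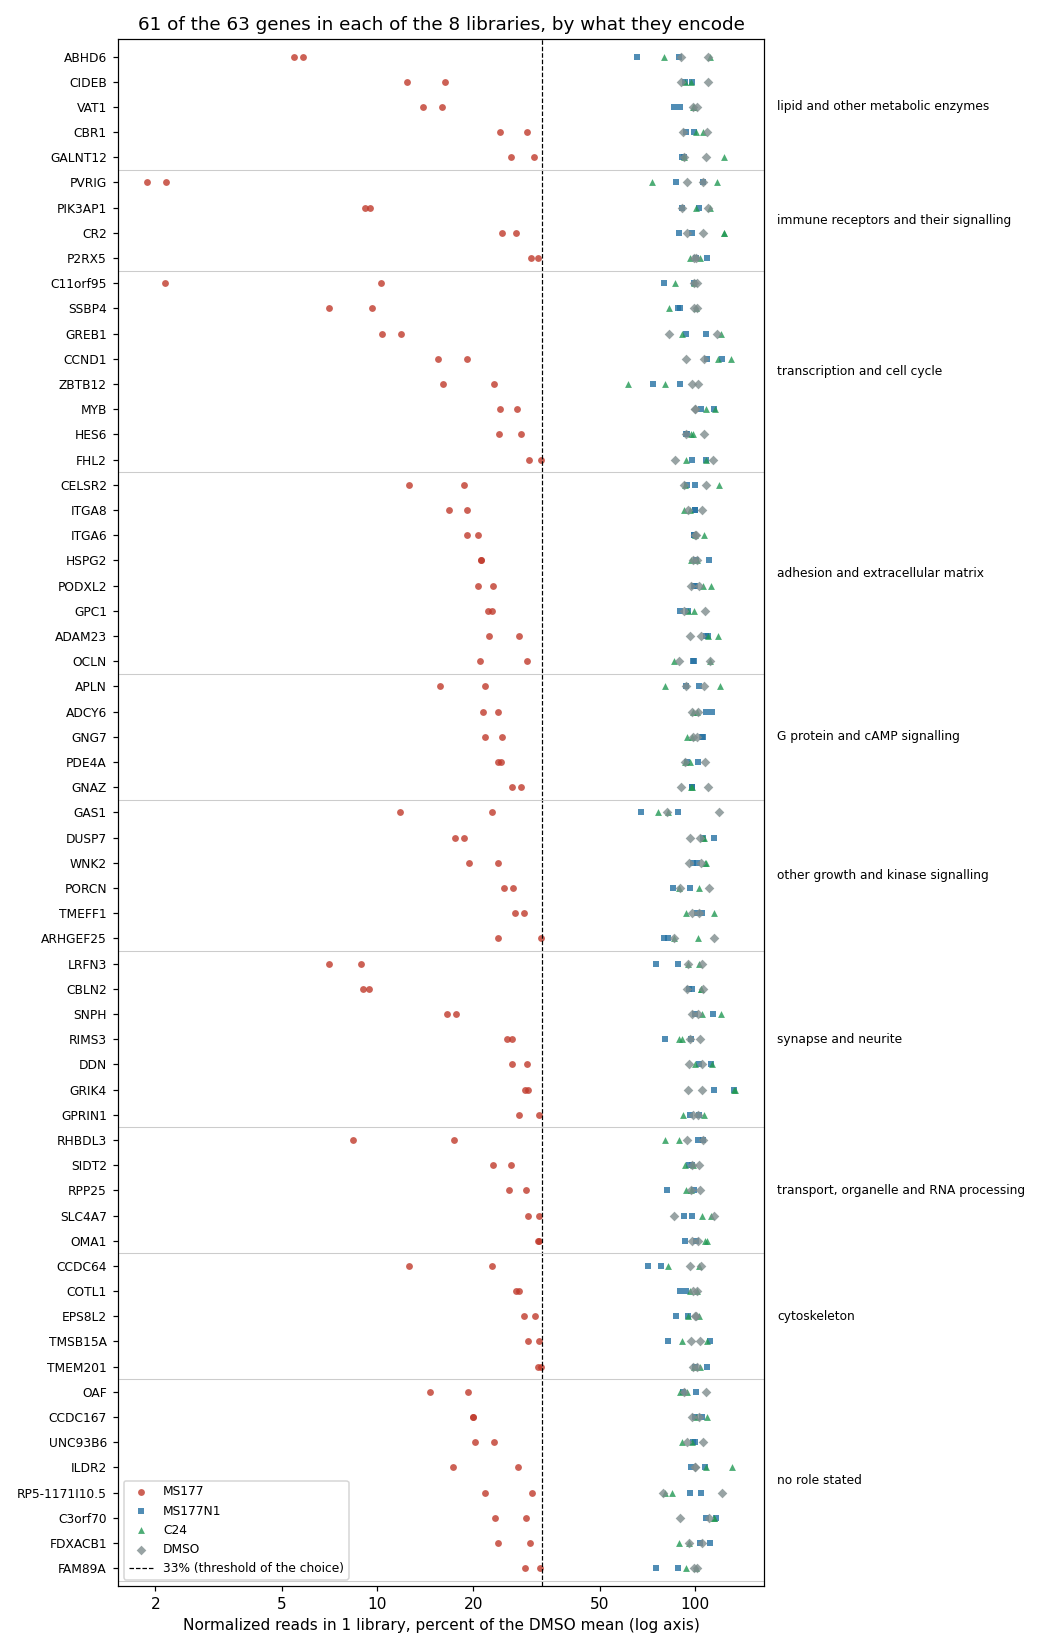
Each row is 1 of 61 of the 63 genes and each point 1 library, in normalized reads as percent of the mean of the 2 DMSO libraries on a log axis, with rows grouped by what the genes encode. The MS177 points lie left of the dashed line at the threshold of the choice, and the MS177N1, C24 and DMSO points crowd around 100%.

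Of the 8 genes for cell adhesion and the extracellular matrix, the median level with MS177 was 21.5% of DMSO, with a range from 15.7% for CELSR2 to 25.3% for OCLN. ITGA8, the integrin alpha chain that binds nephronectin, had 929 and 1060 normalized reads with MS177, 5509 and 5499 with MS177N1, 5091 and 5309 with C24, and 5247 and 5813 with DMSO. ITGA6, an alpha chain of laminin receptors, had 146 and 158 with MS177, 757 and 758 with MS177N1, 811 and 761 with C24, and 766 and 759 with DMSO. Both integrin genes were thus at 18.0 and 19.9% of DMSO with MS177, with the 6 other libraries close together.

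CELSR2, a cadherin of planar cell polarity, had 18.2 and 27.1 normalized reads with MS177, 144 and 136 with MS177N1, 171 and 134 with C24, and 133 and 156 with DMSO. HSPG2, which encodes the basement-membrane proteoglycan perlecan, had 78.2 and 78.6 with MS177, 409 and 372 with MS177N1, 358 and 375 with C24, and 375 and 365 with DMSO. GPC1, a heparan sulphate proteoglycan held on the cell surface by a lipid anchor, stood at 22.5% of DMSO with MS177. PODXL2, a sialomucin that binds selectins, ADAM23, a surface protein of the ADAM family, and OCLN, of tight junctions, stood between 21.9 and 25.3%.

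The other integrin alpha chains did not all lie lower with MS177. Of 12 alpha chain genes tested, ITGA8 and ITGA6 were among the 63. Of the other 10, 5 rose, 3 fell and 2 were not called by limma in MS177 against DMSO. Beside these counts, 28.9% of all tested genes were called higher and 29.0% lower. ITGA1, a collagen receptor chain, averaged 200 normalized reads with MS177 and 2.54 with DMSO. ITGA5, the fibronectin receptor chain, had 119 and 134 with MS177 and 0 and 4.81 with DMSO. ITGA4, the chain of the receptor VLA-4 through which plasma cells bind stroma, averaged 3031 with MS177 and 3741 with DMSO (log2 fold change -0.30, SE 0.06, limma adjusted p = 0.000223). The integrin genes compared here were picked after their values were seen.

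**Figure D2:**
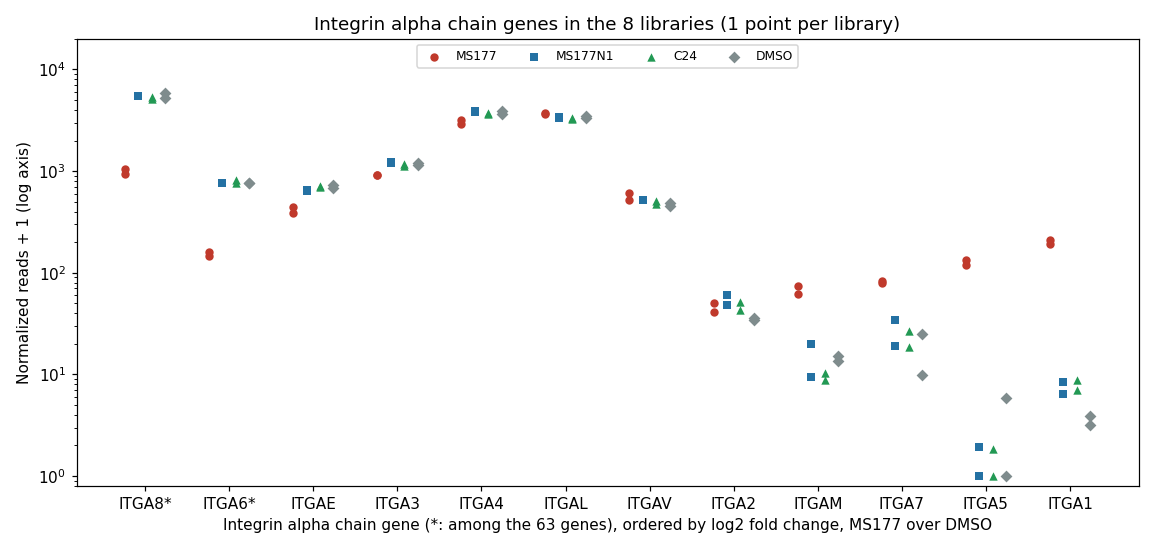
Normalized reads plus 1 on a log axis for the 12 tested integrin alpha chain genes, with 1 point per library and genes ordered by their log2 fold change in MS177 against DMSO. ITGA8 and ITGA6 at the left have their MS177 points far below the other groups, and ITGA1 and ITGA5 at the right have them far above.

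The synapse and neurite group held 8 genes with a median level of 27.0% of DMSO with MS177. CBLN2, a secreted organizer of synapses, had 118 and 123 normalized reads with MS177, 1253 and 1278 with MS177N1, 1360 and 1365 with C24, and 1232 and 1385 with DMSO. LRFN3, a synaptic adhesion protein, had 23.6 and 18.7 with MS177, 199 and 234 with MS177N1, 271 and 251 with C24, and 252 and 278 with DMSO. In both genes the MS177 libraries lay about an order of magnitude under all others, at 10.8 and 12.5-fold below DMSO.

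GRIK4, a subunit of kainate-type glutamate receptors, had 34.3 and 33.7 normalized reads with MS177, 153 and 132 with MS177N1, 152 and 154 with C24, and 121 and 110 with DMSO. It was the gene of the 63 whose means with MS177N1 and with C24 stood highest against DMSO. RIMS3, a presynaptic protein, stood at 26.0% of DMSO with MS177, and SNPH, which anchors mitochondria in axons, at 17.1%. GPRIN1, linked to neurite outgrowth, had 266 and 229 with MS177, 848 and 794 with MS177N1, 753 and 878 with C24, and 836 and 809 with DMSO. DDN, the dendritic protein dendrin, stood at 28.0% of DMSO.

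A list of synapse, axon and adhesion genes, written with earlier results known, had 43 tested genes, of which 13 fell and 13 rose with MS177 against DMSO, CBLN2, LRFN3 and RIMS3 included. Of all tested genes, 29.0% were called lower and 28.9% higher. The median log2 fold change of the list was 0.11, against 0.00 over all tested genes. PCDH9, a protocadherin, averaged 21.3 normalized reads with MS177 and 95.7 with DMSO (log2 fold change -2.12, SE 0.23). ICAM1, a ligand of leukocyte integrins, averaged 2029 with MS177 and 364 with DMSO (log2 fold change 2.48, SE 0.09). The adhesion genes outside the 63 thus included strong calls in both directions.

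In the pathway of G proteins and cyclic AMP, 5 genes stood at 18.8 to 27.3% of DMSO with MS177. APLN, the peptide ligand of the apelin receptor, had 25.7 and 35.5 normalized reads with MS177, 168 and 152 with MS177N1, 194 and 131 with C24, and 152 and 174 with DMSO. GNG7, a G protein gamma subunit, had 318 and 282 with MS177, 1357 and 1366 with MS177N1, 1268 and 1217 with C24, and 1314 and 1277 with DMSO. GNAZ, a G protein alpha subunit that inhibits adenylyl cyclase, stood at 27.3% of DMSO. ADCY6, an adenylyl cyclase that makes cyclic AMP, had 166 and 149 with MS177, 746 and 779 with MS177N1, 682 and 700 with C24, and 676 and 708 with DMSO. PDE4A, a phosphodiesterase that breaks cyclic AMP down, had 171 and 175 with MS177, 731 and 676 with MS177N1, 689 and 664 with C24, and 769 and 663 with DMSO. These 5 genes were put side by side after the choice, and that all are low with MS177 is what the choice required.

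Paralogs of these genes, picked after values were seen, went both ways. GNG2 averaged 285 normalized reads with MS177 and 115 with DMSO, and GNG5 606 with MS177 and 895 with DMSO. PDE4B averaged 382 with MS177 and 175 with DMSO (log2 fold change 1.13, SE 0.14). ADCY3 averaged 3608 with MS177 and 5110 with DMSO (log2 fold change -0.50, SE 0.05). Each of these 4 genes was called by limma.

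Promoter windows of GNG7 and PDE4A are shown as sequence context. Both carry the palindrome TGACGTCA, the element that cyclic AMP-responsive factors are known to bind. In the same group of genes, APLN has a window without the element, and ADCY6 and GNAZ have no window. The windows run from 250 bases before to 50 bases after the start of the gene, from RefSeq on GRCh38.p14, on the strand of the gene from 5′ to 3′, with the element in capitals. GNG7 is chr19:2702645-2702944 on the minus strand and PDE4A is chr19:10416523-10416822 on the plus strand. The element began 241 bases before the start of GNG7 and 3 bases before that of PDE4A, and G and C made up 82.0 and 73.0% of the bases.
GNG7: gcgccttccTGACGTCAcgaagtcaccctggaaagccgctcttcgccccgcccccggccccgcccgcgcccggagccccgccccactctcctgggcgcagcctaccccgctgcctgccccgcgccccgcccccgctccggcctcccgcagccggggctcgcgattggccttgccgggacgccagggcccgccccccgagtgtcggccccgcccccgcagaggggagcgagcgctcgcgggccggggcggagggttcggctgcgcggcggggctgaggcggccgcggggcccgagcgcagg
PDE4A: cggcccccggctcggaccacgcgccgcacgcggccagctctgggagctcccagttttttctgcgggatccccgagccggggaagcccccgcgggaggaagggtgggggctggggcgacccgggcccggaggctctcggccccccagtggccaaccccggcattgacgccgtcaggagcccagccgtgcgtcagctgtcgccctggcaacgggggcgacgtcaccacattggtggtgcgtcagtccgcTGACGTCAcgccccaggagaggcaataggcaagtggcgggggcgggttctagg
The element, searched on both strands, was in the windows of 3 of 47 MS177-low genes with a window (GNG7, PDE4A and SIDT2) and in 347 of 10515 windows of tested genes, or 3.30%. Its first bases, TGACG, searched alone, were in 12 of the 47, or 25.5%, and in 34.4% of the tested windows. The other motifs of the 6 searched were in 89.4% of the 47 and 69.7% of the tested windows for the GC box GGGCGG, in 12.8 and 10.4% for the E-box CACGTG, in 6.38 and 5.54% for the TATA box TATAAA, and in 2.13 and 1.12% for the sterol regulatory element TCACNCCAC. Since 47 of 63 is under 80%, these comparisons over the set are void and the match is a description of these sequences. A window may also belong to another start than the one in use in these cells. Bases just after the start were found in a GENCODE transcript for GNG7 and not for PDE4A. The start of PDE4A, and the place of its element, are thus uncertain.

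Of the 4 genes for immune receptors and their signalling, PVRIG had the lowest relative level of all 63. PVRIG, an inhibitory receptor of lymphocytes, had 3.21 and 2.81 normalized reads with MS177, 129 and 157 with MS177N1, 175 and 108 with C24, and 157 and 140 with DMSO. The MS177 values were 3 reads in each library, and the fold from the summed reads was 49.5 with an exact 95% interval of 22.5 to 136 that covers counting error only. PVRIG shares sequence with the pseudogene PVRIG2P, whose level was 0 and 33.7 with MS177, 5.25 and 34.6 with MS177N1, 0 and 5.53 with C24, and 1.10 and 1.92 with DMSO, so its value is uncertain. Of 6 T and NK cell markers 3 were listed, none of them at 0 in all libraries, and their sum was 38.3 to 47.2 with MS177, 79.1 to 92.3 with MS177N1, 75.3 to 97.3 with C24 and 75.9 to 109 with DMSO. Most of it was CD3E, a chain of the T cell receptor complex, with 33.2 and 29.9 with MS177 and 75.9 and 61.5 with DMSO, and its part in the level of PVRIG was not tested.

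PIK3AP1, the adaptor that links the B cell receptor to PI3-kinase, had 28.9 and 28.1 normalized reads with MS177, 277 and 314 with MS177N1, 306 and 340 with C24, and 277 and 335 with DMSO. CR2, the complement receptor CD21 of B cells, had 101 and 90.7 with MS177, 328 and 361 with MS177N1, 454 and 456 with C24, and 347 and 391 with DMSO. P2RX5, a channel opened by extracellular ATP, had 647 and 613 with MS177, 2195 and 2029 with MS177N1, 2091 and 1943 with C24, and 2002 and 2036 with DMSO. These 3 stood at 9.31, 25.9 and 31.2% of DMSO with MS177. Among these 3 it was CR2 in which both C24 libraries lay above all MS177N1 and DMSO libraries. Of all tested genes, 18.0% had both C24 libraries above both DMSO libraries, and 21.8% had them above both MS177N1 libraries. Limma called CR2 in neither comparison, and nothing is read from that order.

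A readthrough transcript, P2RX5-TAX1BP3, spans P2RX5, so reads of the pair cannot be told apart. Other P2X channels were higher with MS177: P2RX1 averaged 1057 normalized reads with MS177 and 458 with DMSO, and P2RX4 845 with MS177 and 383 with DMSO, both called by limma. Of 32 tested genes in a list of B cell and antigen receptor signalling, 9 fell and 14 rose, with a median log2 fold change of 0.10. Beside that, 29.0% of all tested genes were called lower and 28.9% higher. BACH2, a repressor of plasma-cell differentiation, averaged 1030 with MS177 and 379 with DMSO (log2 fold change 1.44, SE 0.09). VAV2, an exchange factor downstream of antigen receptors, averaged 80.8 with MS177 and 164 with DMSO (log2 fold change -1.02, SE 0.16).

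The transcription and cell cycle group held 8 genes at 6.21 to 31.4% of DMSO with MS177. HES6, a helix-loop-helix factor that opposes HES1, had 1007 and 862 normalized reads with MS177, 3327 and 3350 with MS177N1, 3463 and 3507 with C24, and 3806 and 3335 with DMSO. MYB, a transcription factor of blood progenitors, had 259 and 292 with MS177, 1109 and 1217 with MS177N1, 1227 and 1150 with C24, and 1063 and 1065 with DMSO. CCND1, the D-type cyclin that starts the cell cycle with CDK4 and CDK6, had 31.1 and 38.3 with MS177, 218 and 243 with MS177N1, 260 and 237 with C24, and 214 and 187 with DMSO. All 3 kept the MS177 libraries well below the rest, at 26.2, 25.9 and 17.3% of DMSO.

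CCND2, the D-type cyclin with the most reads in these libraries, averaged 13265 normalized reads with MS177 and 15362 with DMSO (log2 fold change -0.21, SE 0.04), and CCND3 averaged 1079 with MS177 and 1574 with DMSO. Of 59 tested genes in a list of G1/S and DNA replication, CCND1 included, 51 fell and 1 rose, with a median log2 fold change of -0.61. Beside that, 29.0% of all tested genes were called lower and 28.9% higher. HES1 averaged 125 with MS177 and 324 with DMSO, and MYBL2 6809 with MS177 and 9831 with DMSO. These 4 paralogs were called lower by limma, while MYBL1 was not called (log2 fold change -0.17, SE 0.27). The 4 had smaller folds than CCND1, HES6 and MYB. They passed the DMSO level of the choice and were left out for too small a fall, so nothing is read from that order.

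SSBP4, of a family of single-stranded DNA binding proteins, had 54.7 and 40.2 normalized reads with MS177, 503 and 509 with MS177N1, 470 and 572 with C24, and 576 and 563 with DMSO. GREB1, known as an oestrogen-induced gene, had 28.9 and 25.3 with MS177, 263 and 228 with MS177N1, 221 and 293 with C24, and 285 and 202 with DMSO. C11orf95, a zinc finger gene known from fusions in ependymoma, had 26.8 and 5.61 with MS177, 208 and 259 with MS177N1, 226 and 258 with C24, and 264 and 258 with DMSO. Its MS177 libraries differed by 4.77-fold, so its level of 6.21% of DMSO is loosely fixed. The paralogs SSBP2 and SSBP3 were called higher with MS177 (log2 fold changes 0.44, SE 0.08, and 0.36, SE 0.08), and SSBP1 lower (-0.32, SE 0.06).

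ZBTB12, a zinc finger gene, had 25.7 and 17.8 normalized reads with MS177, 98.6 and 80.9 with MS177N1, 67.6 and 88.5 with C24, and 108 and 112 with DMSO. Its exons overlap C2 on the opposite strand, and C2 rose to an average of 148 normalized reads with MS177, against 58.1 with DMSO. The labels do not state a strand for the counting, so reads of the 2 genes cannot be told apart. FHL2, a LIM-domain cofactor, stood nearest inside the threshold together with TMEM201, at 45.0 and 41.2 with MS177 against 156 and 118 with DMSO.

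Lipid and other metabolism covered 6 genes, mostly for enzymes, at 5.64 to 28.7% of DMSO. ABHD6, a lipase of monoacylglycerols, had 9.64 and 10.3 normalized reads with MS177, 157 and 116 with MS177N1, 141 and 197 with C24, and 194 and 160 with DMSO. CIDEB, a lipid droplet protein, had 87.9 and 66.4 with MS177, 499 and 525 with MS177N1, 520 and 497 with C24, and 590 and 484 with DMSO. With MS177 ABHD6 stood at 5.64% and CIDEB at 14.4% of DMSO.

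VAT1, a vesicle membrane protein of the quinone oxidoreductase family, had 114 and 99.1 normalized reads with MS177, 635 and 608 with MS177N1, 707 and 701 with C24, and 701 and 722 with DMSO. CBR1, a carbonyl reductase, had 370 and 304 with MS177, 1237 and 1170 with MS177N1, 1255 and 1325 with C24, and 1357 and 1144 with DMSO. GALNT12, which starts O-linked sugar chains, stood at 28.7%. Among the genes of lipid and other metabolism VAT1 had both MS177N1 libraries below all C24 and DMSO libraries. Of all tested genes, 18.7% had both MS177N1 libraries below both DMSO libraries, and 21.8% had them below both C24 libraries. Limma called VAT1 in neither comparison, and nothing is read from that order.

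Of 36 tested genes in a list of cholesterol and fatty acid synthesis, 28 fell and 1 rose with MS177, with a median log2 fold change of -0.64. Beside that, 29.0% of all tested genes were called lower and 28.9% higher. SQLE, the squalene epoxidase, came close to the choice at 29.9 and 34.2% of its DMSO mean. FASN, the fatty acid synthase, averaged 3472 normalized reads with MS177 and 9030 with DMSO (log2 fold change -1.38, SE 0.04). A second list of other lipid and membrane enzymes had 29 tested genes, ABHD6 and CIDEB included, of which 10 fell and 14 rose, with a median of 0.26.

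Other growth and kinase signalling covered 6 genes at 17.4 to 28.3% of DMSO. GAS1, a Hedgehog co-receptor, had 23.6 and 12.2 normalized reads with MS177, 69.2 and 90.9 with MS177N1, 84.7 and 78.5 with C24, and 122 and 83.6 with DMSO. DUSP7, a phosphatase of ERK kinases, stood at 18.2%, while its paralog DUSP6 was not called (log2 fold change -0.19, SE 0.11, limma adjusted p = 0.140). WNK2, a kinase of ion transport, PORCN, which adds the lipid that Wnt proteins need, TMEFF1, a membrane protein with follistatin-like modules, and ARHGEF25, a guanine nucleotide exchange factor, stood between 21.7 and 28.3%.

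Transport, organelle and RNA processing genes numbered 5, at 12.9 to 32.1% of DMSO. SIDT2, a lysosomal membrane protein, had 200 and 228 normalized reads with MS177, 846 and 829 with MS177N1, 852 and 802 with C24, and 842 and 887 with DMSO. RHBDL3, of the rhomboid family, had 8.57 and 17.8 with MS177, 104 and 108 with MS177N1, 90.7 and 81.8 with C24, and 108 and 96.1 with DMSO. RPP25, a subunit of RNase P, SLC4A7, a bicarbonate transporter, and OMA1, a protease of the inner mitochondrial membrane, stood between 27.6 and 32.1%.

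Of 5 cytoskeleton genes, CCDC64, a dynein adaptor also named BICDL1, was lowest with MS177 at 34.3 and 18.7 normalized reads, against 106 and 116 with MS177N1, 122 and 154 with C24, and 155 and 143 with DMSO. TMEM201, a protein of the inner nuclear membrane, had 447 and 456 with MS177, 1514 and 1388 with MS177N1, 1384 and 1440 with C24, and 1415 and 1372 with DMSO. COTL1 and TMSB15A, which bind actin, and EPS8L2, which regulates it, stood between 27.7 and 31.0%.

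For 8 genes no role is stated: CCDC167, OAF, C3orf70, FDXACB1, ILDR2, FAM89A, the pseudogene UNC93B6 and RP5-1171I10.5. They stood at 17.0 to 30.8% of DMSO. CCDC167 had the most reads among them, with 270 and 269 normalized reads with MS177, 1348 and 1410 with MS177N1, 1471 and 1356 with C24, and 1382 and 1312 with DMSO. RP5-1171I10.5 had 130 and 92.6 with MS177, 409 and 444 with MS177N1, 341 and 358 with C24, and 514 and 336 with DMSO, the widest DMSO spread of the 63 with a ratio of 1.53.

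Values next to the thresholds changed little from inside to outside. TMEM201 and FHL2, nearest inside the share, had 0.327 and 0.328 of the DMSO mean in their higher MS177 library, and IGFBP7 and POLR3G, nearest outside, were just past 0.33. IGFBP7 had 121 and 82.3 normalized reads with MS177 against a DMSO mean of 367, and POLR3G 63.2 and 60.8 with MS177 against a DMSO mean of 191. RHBDL3 and GAS1, nearest inside the read level, averaged 102.0 and 102.9 normalized reads in DMSO, and PRRG2 and PLA2G16, nearest outside, averaged 98.9 and 98.1.

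Against DMSO, MS177N1 brought no gene of the 63 past the test. Here and in the comparisons that follow, so few of all tested genes were called that a count of 0 says nothing particular to the 63. The limma fit over all 14164 tested genes called 0 of the 63 at an adjusted p under 0.05, against 0.0353% of all tested genes, and the lowest adjusted p among the 63 was 0.965. At an unadjusted p under 0.05 there were 2 of the 63, or 3.17%, among them FAM89A (log2 fold change -0.29, SE 0.13), and 5.07% of all tested genes. Limma-voom on the recovered reads also called 0. The median log2 fold change of the 63 was -0.03, against -0.00 over all tested genes, with 40 genes below 0 and 23 above. Those below 0 were 63.5% of the 63, against 50.8% of all tested genes. The DMSO libraries took part in the choice, which favours genes whose DMSO values were high by chance.

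The MS177N1 means lay between 74.5 and 123.6% of DMSO, and 59 of the 63 were between 80 and 120%. The 3 with the lowest log2 fold changes were CCDC64 (-0.42, SE 0.25), ABHD6 (-0.38, SE 0.24) and GAS1 (-0.35, SE 0.31), and the 3 with the highest were GRIK4 (0.30, SE 0.19), CCND1 (0.20, SE 0.17) and C3orf70 (0.17, SE 0.13). The 95% interval of the fold lay above 0.33 for 62 genes and above 0.5 for 61. The exception at 0.33 was C11orf95, with an interval from 0.252 to 3.14. Its error is drawn from all 4 groups, and its MS177 libraries differed by 4.77-fold. Both MS177N1 libraries were below both DMSO libraries for 12 of the 63, against 18.7% of all tested genes, and above them for 7, against 16.7%.

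For C24 against DMSO, the fit likewise called 0 of the 63, against 0.0918% of all tested genes, with a lowest adjusted p of 0.908, and limma-voom called 0. At an unadjusted p under 0.05 there were 2, CR2 (log2 fold change 0.30, SE 0.12) and GRIK4 (0.41, SE 0.19), and 5.38% of all tested genes. The median log2 fold change was -0.02, against 0.00 over all tested genes, with 37 genes below 0 and 26 above. Those below 0 were 58.7% of the 63, against 49.3% of all tested genes. The caution on DMSO values high by chance holds here too. Means with C24 lay between 70.8 and 132.7% of DMSO, and 58 of the 63 were between 80 and 120%. ZBTB12 (-0.50, SE 0.25), GAS1 (-0.31, SE 0.31) and RP5-1171I10.5 (-0.25, SE 0.19) had the lowest log2 fold changes, and GRIK4, CCND1 (0.31, SE 0.17) and CR2 the highest. The interval lay above a fold of 0.33 for 62 genes, again with C11orf95 as the exception. Both C24 libraries were below both DMSO libraries for 5 of the 63, against 17.4% of all tested genes, and above them for 12, against 18.0%.

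**Figure D3:**
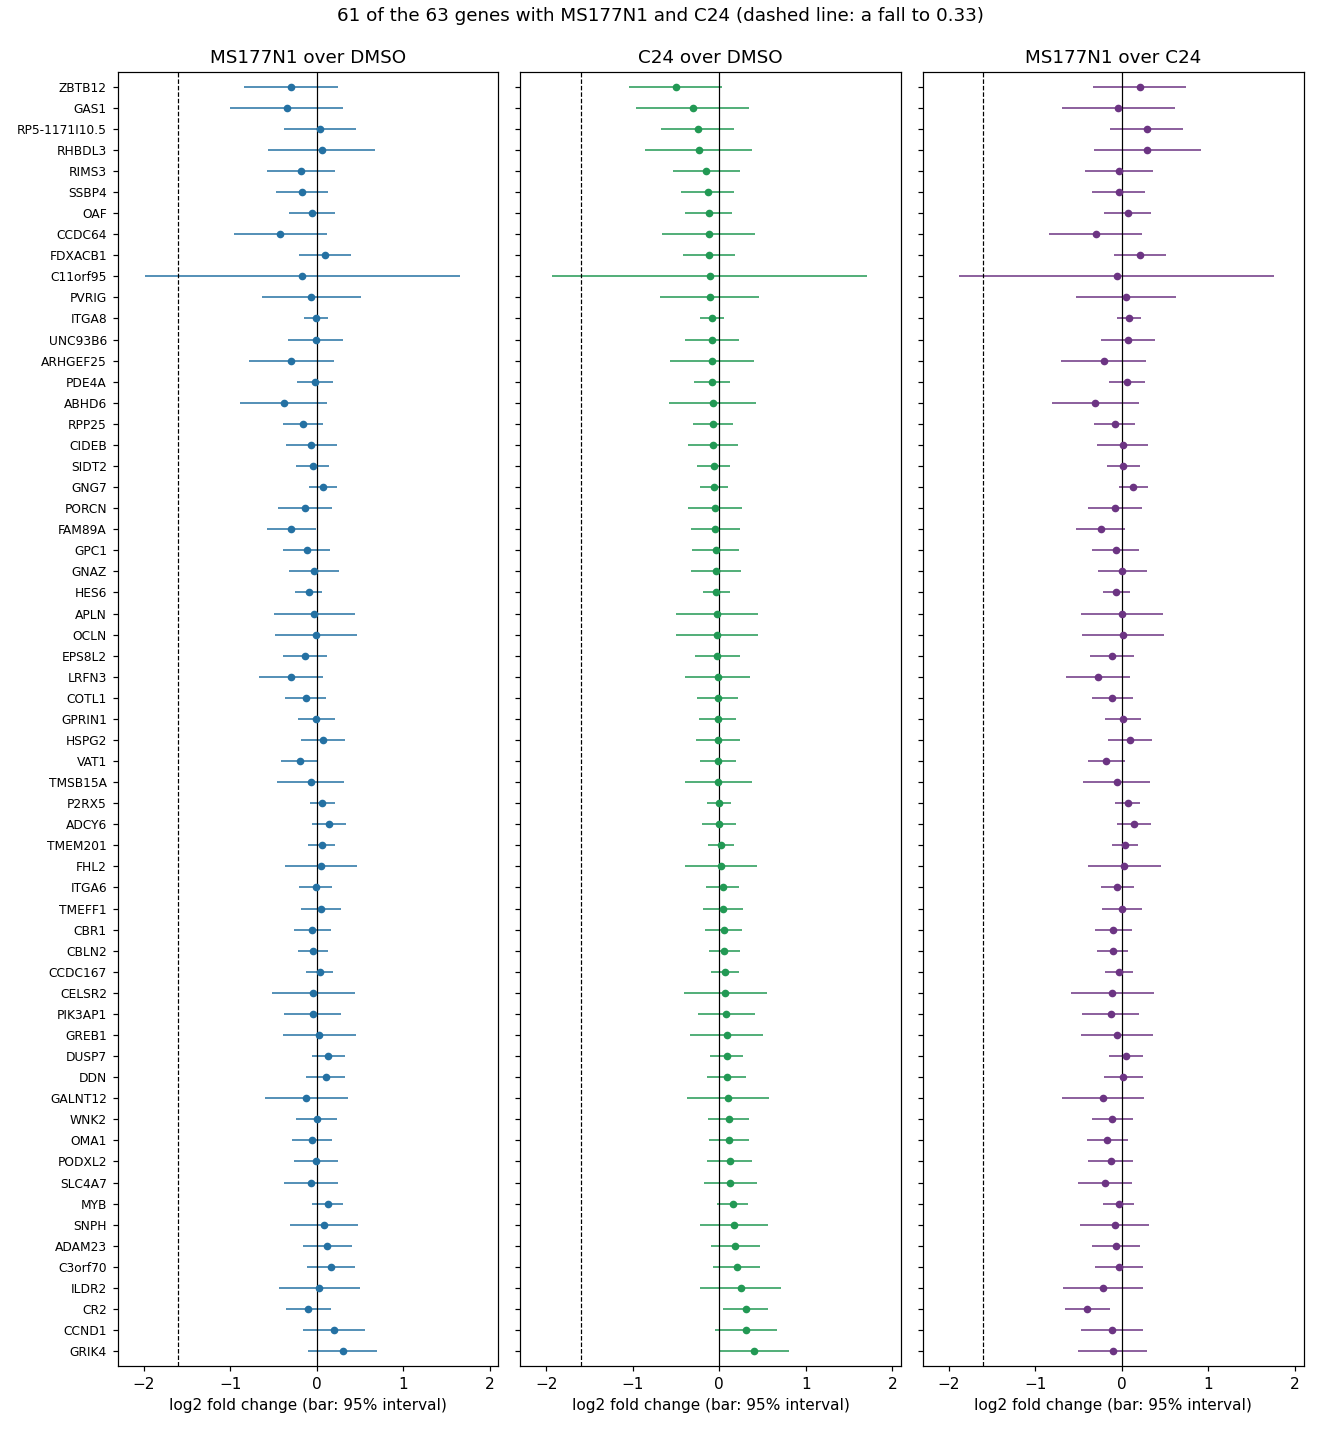
Log2 fold changes of 61 of the 63 genes (points) with 95% intervals (bars) from the limma fit, for MS177N1 over DMSO, C24 over DMSO and MS177N1 over C24, in the order of the C24 over DMSO values. The points lie between -0.50 and 0.41, and the bars of all genes drawn except C11orf95 stay right of the dashed line at a fold of 0.33.

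MS177N1 and C24 were compared directly at the same dose and time, in a pair of groups of which neither chose the genes. The fit called 0 of the 63, against 0.0141% of all tested genes, with a lowest adjusted p of 0.997, and limma-voom called 0. At an unadjusted p under 0.05 there was 1 of the 63, CR2, which was lower with MS177N1 than with C24 (log2 fold change -0.40, SE 0.12), and 4.48% of all tested genes. The 95% interval of that fold ran from 0.633 to 0.906. The median log2 fold change of the 63 was -0.05, against -0.01 over all tested genes, with 39 below 0 and 24 above. Those below 0 were 61.9% of the 63, against 52.2% of all tested genes. Both MS177N1 libraries were below both C24 libraries for 18 of the 63, against 21.8% of all tested genes, and above them for 7, against 19.1%. Over the 63 genes, the 95% intervals of the MS177N1 over C24 fold had median bounds of 0.789 and 1.18.

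The comparisons with DMSO share the same DMSO libraries, which also took part in the choice and favour genes with DMSO values high by chance. The counts that follow have no share over all tested genes beside them, so nothing is read from them. With that in view, 30 of the 63 had both the MS177N1 and the C24 mean below the DMSO mean, 15 had both above and 18 had them on opposite sides. Summed by function, the 8 adhesion and matrix genes had 1458 and 1591 normalized reads with MS177, 7995 and 7958 with MS177N1, 7709 and 7805 with C24, and 7715 and 8271 with DMSO. Synapse and neurite genes summed to 822 and 810 with MS177, 4018 and 3857 with MS177N1, 4046 and 4094 with C24, and 3913 and 3945 with DMSO.

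Of 20 gene lists drawn up with earlier results known, 8 held 13 of the 63 genes and 12 held none. Beside the counts of the main fit that follow, 29.0% of all tested genes were called lower and 28.9% higher. In 6 of the 12 lists without any of the 63, more genes fell than rose with MS177, in 5 more rose, and in 1 as many rose as fell. Among MYC and nucleolar genes 50 of 54 tested genes fell and 0 rose (median log2 fold change -0.64), and in glycolysis and nucleotide synthesis 38 of 40 fell and 1 rose (median -0.61). In mitochondrial import, respiration and translation 36 of 43 fell and 1 rose, in mitosis 30 of 40 fell and 1 rose, among chaperones 24 of 34 fell and 6 rose, and in plasma-cell identity 22 of 41 fell and 11 rose. The type I interferon response went the other way, with 6 of 27 down and 14 up (median 0.57), as did glucocorticoid-induced genes, with 3 of 15 down and 9 up (median 0.53). Counts were nearly even for cytokine and growth factor signalling (15 of 44 down, 17 up), Polycomb complexes (11 of 33 down, 12 up), chromatin and DNA methylation (18 of 49 down, 22 up) and drug targets of CRBN (9 of 21 down, 9 up). The list of nuclear receptors and cofactors, which holds GREB1, had 4 of 30 fall and 21 rise, with a median of 0.68. The list of ion channels, with P2RX5 and GRIK4, had 6 of 22 fall and 5 rise, with a median of 0.13. RHBDL3 was filed in a list of small GTPase and cytoskeleton genes although it is a rhomboid-family gene, and in that list 15 of 46 fell and 17 rose, with a median of -0.02. Scaling by total reads raised the log2 fold changes of MS177 against DMSO by 0.08, which put the median of this last list at 0.06 and that of the cytokine list, otherwise -0.04, at 0.04. With that scaling, 8 fell and 14 rose among Polycomb complexes, and 15 fell and 23 rose in chromatin and DNA methylation. In the cytokine list 14 fell and 17 rose, and among drug targets of CRBN 7 fell and 9 rose. How even these counts are thus depends on the scaling.

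Paralogs of 18 of the 63 genes were looked up in 17 families picked after values were seen. Of 48 paralogs tested, 19 rose (39.6%), 14 fell (29.2%) and 15 were not called in MS177 against DMSO, beside 28.9% of all tested genes called higher and 29.0% called lower. GPC4, a glypican, averaged 1309 normalized reads with MS177 and 890 with DMSO, and GPC6 67.2 with MS177 and 116 with DMSO. SDC1, the syndecan that marks plasma cells, averaged 12423 with MS177 and 28802 with DMSO (log2 fold change -1.21, SE 0.04), and SDC2 151 with MS177 and 46.9 with DMSO. LRFN4 averaged 340 with MS177 and 77.5 with DMSO, opposite to LRFN3.

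The 63 genes were rich in G and C. The longest annotated transcript had a median GC content of 57.4% over the 62 genes matched in GENCODE 29, with quartiles at 47.5 and 62.4%, against 48.0% over 13029 tested genes matched, with quartiles at 41.9 and 56.1%. The highest GC quartile of tested genes, from 56.1 to 74.7%, held 35 of the 63, the next lower quartile 10, the one below it 15 and the lowest 2. Over all tested genes the median log2 fold change in MS177 against DMSO was 0.08 in the lowest GC quartile and -0.06 in the highest. With the trend over GC content removed, the choice took 59 genes, of which 57 were among the 63. RP5-1171I10.5 had no GC value and could not be taken. The trend was small beside the falls that the choice required, and the same MS177 and DMSO values chose the genes. This count therefore cannot show the part of GC content. Transcript length did not stand apart in the same way, with medians of 3731 bases for the 62 and 3640 for tested genes. The part of GC content in the result was not tested.

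**Figure D4:**
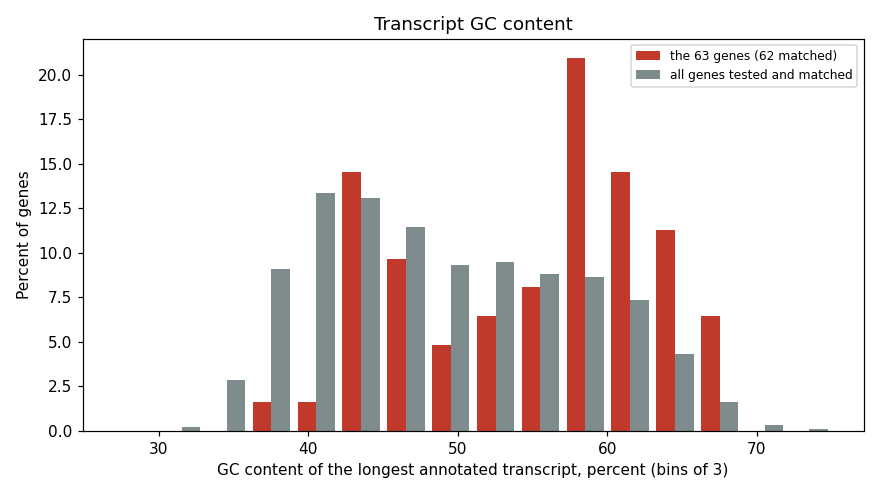
Percent of genes in bins of 3 percent GC content of the longest annotated transcript, for the MS177-low genes (62 of 63 matched) and for all 13029 tested genes matched. The MS177-low genes peak in the bin from 57 to 60 percent, with a lower peak from 42 to 45 percent, and the tested genes peak between 39 and 45 percent.

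Of the 63, 61 are annotated as protein coding, UNC93B6 as a transcribed pseudogene, and RP5-1171I10.5 could not be matched. They lie on 20 chromosomes, with 9 each on chromosomes 1 and 11 as the most. No 2 were directly adjacent, and OAF and GRIK4 were the pair within 3 listed genes of each other. The 114 tested neighbours outside the set had a median log2 fold change of -0.00 with MS177 against DMSO, and 41 (36.0%) were called lower and 28 (24.6%) higher, beside 29.0 and 28.9% of all tested genes.

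Exons of 14 of the 63 overlap those of another listed gene, and their values are uncertain because the counting could share reads. Besides PVRIG, ZBTB12 and P2RX5 these are SSBP4, RHBDL3, CIDEB, CCND1, HSPG2, FDXACB1, GNAZ, RPP25, TMEFF1, EPS8L2 and OMA1. Of 15 such partners 12 were tested, of which 5 fell and 2 rose, beside 29.0% of all tested genes called lower and 28.9% called higher. In DMSO the partner averaged from 0.0048 times (TMEFF1) to 3.95 times (RHBDL3) the level of its gene. For SSBP4, HSPG2, GNAZ, TMEFF1, P2RX5 and OMA1 it averaged at most 0.0361 times that level. UNC93B6 and TMSB15A have near-identical copies and are uncertain too. UNC93B1 averaged 7106 normalized reads with MS177 and 8990 with DMSO, and TMSB15B 156 with MS177 and 299 with DMSO.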

How the data were processed

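RNA-seq of MM1.S cells was measured in 8 libraries, 2 per group, grouped by the treatment in the labels. The NEBNext Ultra II kit was used on 1 ug of total RNA, per the labels' protocols. The submitters' processing notes list hg19 as the build, and name DESeq2 1.38.2, STAR 2.4.2 and Salmon 0.1.19 without saying what each did. The values the authors deposited are log2 values after a variance-stabilizing transformation, with 5.967655733 as the value of 0 reads. They were turned back into normalized reads, and 130360 of 130360 values gave whole reads within 0.01.

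A gene was tested if 2 libraries held 10 or more reads, scaled to the median library size, and all libraries together 15 or more. The log2 of normalized reads plus 1 entered limma 3.58.1 (trend and robust settings, statmod 1.5.0, R 4.3.3), with all 4 groups in the same fit. P-values were adjusted by the Benjamini-Hochberg method over all 14164 genes, and a gene was called under 0.05. EdgeR and DESeq2 fits had been planned as alternatives and were not run, and limma-voom on the recovered reads took their place. The test was checked on simulated data. Intervals are 95% intervals. Between 20000665 and 26619099 reads per library set the precision.

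The genes named with values are those with the 12 lowest ratios, the 12 highest DMSO means, those nearest the thresholds, the 3 largest changes in each direction with MS177N1 and C24, and up to 4 per list. Some genes that this rule would name are not reported here. The remaining genes were grouped by function after their names were seen. The 63 genes, the lists and the families were chosen with earlier results of these data known. Over all tested genes, same-numbered replicates did not deviate together (correlations between -0.06 and 0.06). A pairing that touches only some genes could not be seen this way, so pairing is not excluded. The main fit used no pairing. Alternatives covered scaling, pseudocount, filter, thresholds, the groups fitted, a replicate block and leaving out each library. GENCODE 29 and RefSeq are on GRCh38 and were used for names, types, neighbours and base composition, and RefSeq also for promoter windows. GENCODE also served to look up the starts of these windows, and some, that of PDE4A included, were not found.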

Additional observations from a re-analysis of the deposited data

How the results depend on the processing

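In each of the 16 alternatives of each comparison, 0 of the 63 genes were called in MS177N1 against DMSO, C24 against DMSO and MS177N1 against C24. With so few calls among 14164 genes, a count of 0 in 63 says nothing about stability. MS177N1 against DMSO gave 5 genes, and 3 with total-read scaling, 8 with a pseudocount of 8, 8 on the deposited log2 values, 17 with only the groups compared, 11 with a replicate block and 8 with limma-voom. C24 against DMSO gave 13, and 20 with a replicate block. MS177N1 against C24 gave 2, and 28 with only the groups compared. Leaving out 1 library gave 0 to 19, 10 to 28 and 0 to 13 genes for these 3 comparisons. The counts were 19 and 18, 28 and 27, and 13 and 11 without MS177 replicate 1 or 2. For MS177N1 against DMSO they were 1 and 0 without C24 replicate 1 or 2 and 0 without DMSO replicate 2. For MS177N1 against C24 they were 1 without MS177N1 replicate 1 and 0 without either C24 replicate. Leave-one-out medians over the 63 genes ran from -0.0281 to 0.00153 in MS177N1 against DMSO, from -0.0200 to 0.00524 in C24 against DMSO and from -0.0663 to -0.0140 in MS177N1 against C24.

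The choice took 32 genes at a share of 0.25, 304 at 0.5, 91 at a DMSO level of 50, 46 at 200, 63 with TMM scaling and 52 with total-read scaling. Without an MS177 library it took 91, and without a DMSO library 64 (55 of the 63 among them) or 70 (60 among them). Limma-voom and removal of the GC trend were chosen after seeing the data. The planned edgeR and DESeq2 fits were not run. The cause of these shifts was not tested. With 2 libraries per group, low reads with MS177 limit folds such as that of PVRIG.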
